A study of Homo sapiens with 12 samples.

Results

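Of the 58302 genes counted in human H1 cells, 9 genes of retinoic acid synthesis and response were examined: ALDH1A1, ALDH1A2, ALDH1A3, DHRS3, CYP26A1, CYP26B1, CRABP1, CRABP2 and RARB. The genes were picked by name and chosen by their measured levels in these same 12 samples, so the levels and fold changes of the 9 genes are given as a description without p-values. H1 is a human embryonic stem cell line. WT H1 cells and H1 cells with deletion of both UTX (KDM6A) and JMJD3 (KDM6B), the dKO line, were differentiated into neural progenitor cells (NPCs). UTX and JMJD3 are demethylases of the repressive histone mark H3K27me3. The dKO line was derived by puromycin selection of clones, with the cassette in JMJD3 removed by Cre before UTX was targeted, and only the catalytic part of each gene was deleted. RNA was sequenced in 6 groups of 2 samples, namely WT NPCs and dKO NPCs at passage 2 (P2), WT NPCs and dKO NPCs at passage 4 (P4), and cells of each genotype after 28 days of spontaneous differentiation without FGF2 and EGF (WT-D28 and dKO-D28). The labels name passage 4, while passage 2 of the other NPCs was taken from the study's text. At each stage both genotypes were grown in the same medium, which contained B27 supplement. Whether this supplement held vitamin A is not stated, and no retinoic acid is named among the additions. During the 28 days GDNF, BDNF and cAMP were added, so changes from NPCs to day 28 cannot be told apart from this change of medium.

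Retinoic acid is a vitamin A derivative that acts as a signal in the embryo. Retinol is oxidised to retinal by enzymes such as RDH10 and turned into retinoic acid by the retinal dehydrogenases ALDH1A1, ALDH1A2 and ALDH1A3, while DHRS3 reduces retinal back to retinol. CRABP1 and CRABP2 bind retinoic acid in the cytoplasm, the receptors RARA, RARB and RARG act on genes together with RXR partners, and the CYP26 enzymes break retinoic acid down. In neural tissue the signal is known for posterior patterning and neuronal differentiation, and RARB, CYP26A1 and DHRS3 are textbook genes that retinoic acid induces.

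A retinoic acid response element is a direct repeat of a hexamer, most often with 5 bases between the copies (DR5). The windows of 250 bases before to 50 bases after a start site, as RefSeq gives them for GRCh38.p14, were searched on both strands for 2 hexamers in the same orientation with 5, 2 or 1 bases between them. The hexamers allowed were the consensus AGGTCA, the form AGTTCA that both genes below hold, the form GGTTCA that only the RARB match holds, and GGGTCA. Among 16 windows matched to the 9 genes, a DR5 match was found for RARB and for CYP26A1, shown here because both genes are measured below. No match of the other spacings was found, which says only that these letters are not in these windows. Of all 35116 windows, 0.0883% held a DR5 match, 0.0399% a match with 2 bases and 0.131% a match with 1 base. Capitals mark the repeat and its spacer, with 6 flanking bases on each side, in the direction of the gene.
RARB: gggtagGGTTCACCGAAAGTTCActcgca
CYP26A1: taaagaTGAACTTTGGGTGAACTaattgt
The RARB sequence lies at chr3:25428204-25428232 on the forward strand, with the repeat 53 to 37 bases before the start site. The CYP26A1 sequence lies at chr10:93073797-93073825, with the repeat 90 to 74 bases before the start site, and its match, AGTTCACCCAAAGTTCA, is on the opposite strand. Both lie inside an exon of a longer annotated transcript of the same gene, 3 transcripts for RARB and 1 for CYP26A1. A match is a stretch of letters and not a measured binding site.

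Total counts lay between 756942 and 1438807 in the 4 P2 samples and between 3174410 and 10601172 in the others, so that 3 counts, taken as the floor, correspond to 3.92 CPM (counts scaled to a common library size) in the shallowest sample and 0.302 CPM in the deepest. Reads carry no molecular identifiers, so floors and intervals cover counting error only. The pair of dKO-D28 samples stood apart from each other, with a chi-square of 12.5 per degree of freedom over genes against 1.63 to 2.90 in the other pairs. KDM6A remained at 27.7 to 59.4 CPM and KDM6B at 146 to 188 CPM in dKO samples. Whole-gene counts include the exons outside the deletion, so they do not check the labels. All 4 neural progenitor markers (SOX1, SOX2, PAX6 and NES) were detected in every group. PAX6 was at 11.9 and 11.7 CPM in WT-D28, against 304 and 262 CPM in WT P2 and 190 and 356 CPM in dKO-D28. SOX1, SOX2 and NES had the opposite order at day 28. SOX1 was at 144 and 143 CPM in WT-D28 against 117 and 114 CPM in dKO-D28. SOX2 was at 412 and 409 against 358 and 290 CPM, and NES at 922 and 942 against 620 and 618 CPM. The 4 progenitor markers summed to 1490 to 1506 CPM in WT-D28 and 1285 to 1378 CPM in dKO-D28. The summed neuronal markers reached 3388 to 3392 CPM in WT-D28 against 606 to 1045 CPM in dKO-D28. Their sum was highest in WT P4, at 4012 to 4566 CPM against 776 to 808 CPM in dKO P4, although both are named NPCs. Of 4 listed markers of pluripotent cells, POU5F1 and NANOG were at 0 in all 12 samples, and TDGF1 was detected in dKO-D28 only. DPPA4 was at 43.1 and 30.6 CPM in WT P2, 18.8 and 10.6 CPM in dKO P2 and 14.1 and 5.98 CPM in dKO-D28. In WT-D28 the 4 markers summed to at most 0.120 CPM. The labels do not say whether the samples of a group were separate cultures, so p-values measure the spread between these samples, which may be technical. In bulk RNA, fewer cells of a type and less RNA per cell cannot be told apart.

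Of the retinal dehydrogenases, ALDH1A1 and ALDH1A3 were at 0 in some groups and well above the floor in others. ALDH1A1 (ENSG00000165092; hg38 chromosome 9, 72900671 to 73080442) was at 0 and 7.45 CPM in the WT P2 samples, and at 16.5 and 15.6 CPM in the dKO P2 samples. It was at 0 in both WT P4 samples against 21.5 and 22.6 CPM in dKO P4. It was again at 0 in both WT-D28 samples, the deepest of the series, against 21.1 and 78.7 CPM in dKO-D28. Every dKO sample thus lay above every WT sample, and 10 reads in 1 P2 library were all that the 6 WT samples held. Against the floor of 3 counts per library, the mean was at least 22.0-fold higher in dKO at P4 and at least 139-fold higher at day 28, where the bound was 58.6-fold without dKO-D28 sample 2 and 219-fold without sample 1. At P2 the log2 fold change was 1.77 ± 1.497 (SE), and it did not meet the thresholds described below, although it was called without either dKO-D28 sample (1.76 in both fits). It was 1.10 without WT P2 sample 1, which was at 0, and without WT P2 sample 2 WT was at 0 and no fold is given. The dKO-D28 mean, 49.9 ± 40.8 CPM (SD, n = 2), came from samples that differed by more than the step between dKO P2 and dKO P4, so its place above dKO P4 was within the spread.

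ALDH1A3 (ENSG00000184254; chromosome 15, 100877714 to 100916626) had another order. It was at 205 and 160 CPM in WT P2, the highest group, and at 66.1 and 28.3 CPM in dKO P2. It was at 4.01 and 4.88 CPM in WT P4 and at 7.26 and 4.66 CPM in dKO P4, groups that overlapped. In WT-D28 both samples were at 0, whereas dKO-D28 held 52.4 and 68.7 CPM. The genotypes therefore stood in opposite order at P2 and at day 28. The log2 fold change of dKO against WT was -1.95 ± 0.32 at P2 (-2.67 without dKO P2 sample 1) and 0.41 ± 0.54 at P4, and at day 28 the level was at least 168-fold higher in dKO. Within WT, the level was at least 507-fold lower at day 28 than at P2, and within dKO the same comparison gave 0.37 ± 0.32, with overlapping samples. ALDH1A3-AS1, an antisense gene that overlaps its exons, had 683 counts over the series, and because the counting is not stated to use strand, reads of the pair cannot be told apart.

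ALDH1A2 (ENSG00000128918; chromosome 15, 57953424 to 58497866), the main retinoic acid producing enzyme of the early embryo and of the meninges, stayed near the floor. It had between 0 and 3 reads in every WT and P2 sample, 6 and 9 reads (1.41 and 2.21 CPM) in dKO P4, and 4 and 1 reads in dKO-D28. Only at P4 did the genotypes separate, with a ratio of summed counts per library size of 12.4 (95% exact interval 1.90 to 521) that rests on 1 read in WT.

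Per kb of exon, which allows the enzymes to be set side by side, ALDH1A3 was the most abundant in WT P2 at 34.2 CPM per kb, against 1.31 for ALDH1A1. In dKO P2 the levels were 8.84 for ALDH1A3 and 5.65 for ALDH1A1. In dKO P4 ALDH1A1 was at 7.77 CPM per kb and ALDH1A3 at 1.12. In dKO-D28 they were at 17.6 and 11.3, and ALDH1A2 did not exceed 0.222 in any group. In WT P4 ALDH1A3 was at 0.833 and ALDH1A1 at 0. ALDH1A1 lay above ALDH1A3 in both dKO P4 samples, whereas the order of the pair differed between samples in dKO P2 and in dKO-D28. ALDH1A3 was higher in dKO P2 sample 1 (12.4 against 5.82) and in dKO-D28 sample 1 (9.81 against 7.43). ALDH1A1 was higher in dKO P2 sample 2 (5.48 against 5.30) and in dKO-D28 sample 2 (27.7 against 12.9).

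**Figure D1:**
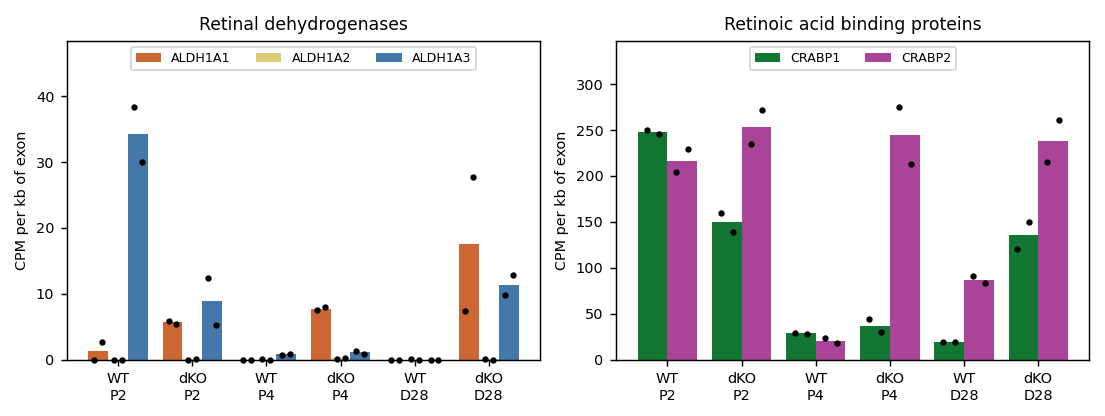
Group mean (bars, n = 2) and the samples (points) in CPM per kb of union exon length for the retinal dehydrogenases (left) and the retinoic acid binding proteins (right); bars start at 0. ALDH1A3 leads in WT P2 at 34.2 and ALDH1A1 in dKO P4 at 7.77, while in dKO P2 and dKO-D28 the points of ALDH1A1 and ALDH1A3 overlap.

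DHRS3 (ENSG00000162496; chromosome 1, 12567910 to 12618210), which returns retinal to retinol, was at 10.4 and 5.96 CPM in WT P2 and at 4.504 and 7.78 CPM in dKO P2, groups that overlapped. It was at 9.35 and 7.96 CPM in WT P4 and at 25.1 and 24.5 CPM in dKO P4, the highest group. In WT-D28 it was at 0.120 and 0.402 CPM, which is 1 and 4 reads, while dKO-D28 kept 9.45 and 3.09 CPM. The log2 fold change of dKO against WT was -0.31 ± 0.65 at P2, 1.52 ± 0.36 at P4 and 4.32 ± 0.62 at day 28, where the ratio of counts was 21.6 (95% exact interval 8.71 to 69.1). Below dKO P4, the next 4 groups in the order overlapped with their neighbours, and WT-D28 lay below all of them.

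CYP26A1 and CYP26B1, the enzymes that clear retinoic acid, were below the mean of 20 counts required for the fit, with means of 8.83 and 18.9. CYP26A1 (ENSG00000095596; chromosome 10, 93073475 to 93077885) had 1 read in each WT P2 sample, 3 and 1 reads in dKO P2, 6 and 7 reads in WT P4 and 15 and 12 reads in dKO P4. At day 28 it had 3 and 1 reads in WT against 27 and 29 reads in dKO. The ratio of dKO to WT per library size was 27.5 (95% exact interval 10.2 to 104) at day 28 and 1.71 (0.854 to 3.62) at P4. These intervals pool the 2 samples of a group and leave out the spread between them, so they are no test. At P4 the dKO samples, at 3.51 and 2.94 CPM, lay above the WT samples, at 2.00 and 1.80 CPM. CYP26B1 (ENSG00000003137; chromosome 2, 72129238 to 72147862) was at 1.67 and 3.08 CPM in WT P4 against 12.2 and 12.5 CPM in dKO P4, and had 5 reads in each WT-D28 sample against 10.9 and 5.40 CPM in dKO-D28. Its ratios were 4.999 (2.98 to 8.91) at P4 and 14.3 (7.37 to 31.1) at day 28. At P2, where WT held 0 and 5.22 CPM against 6.01 and 6.36 CPM for dKO, the ratio of 1.86 had an interval of 0.735 to 5.32. CYP26C1, the remaining family member and not among the 9 genes, had at most 2 reads in any WT sample and none at P2, against 11 and 7 reads in dKO P4 and 6 and 11 reads in dKO-D28.

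CRABP1 and CRABP2, the cytoplasmic carriers, were the most abundant of the 9 genes per kb of exon in every group. CRABP1 (ENSG00000166426; chromosome 15, 78340353 to 78348225) was at 240 and 236 CPM in WT P2, the highest group, and at 153 and 134 CPM in dKO P2. It was at 27.7 and 27.0 CPM in WT P4, 42.2 and 28.4 CPM in dKO P4 and 18.8 and 18.7 CPM in WT-D28. In dKO-D28 it was at 116 and 144 CPM, a range that overlapped dKO P2. The log2 fold change of dKO against WT was -0.73 ± 0.16 at P2, 0.37 ± 0.19 at P4 and 2.79 ± 0.16 at day 28. Between P2 and day 28 it was -3.66 ± 0.17 in WT and -0.14 ± 0.16 in dKO. The antisense gene ENSG00000279694 overlaps its exons and had 1276 counts over the series, so the same limit on strand applies.

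CRABP2 (ENSG00000143320; chromosome 1, 156699606 to 156705816) varied little in dKO and widely in WT. The dKO samples lay at 254 and 294 CPM at P2, 298 and 231 CPM at P4 and 233 and 283 CPM at day 28, with overlapping ranges in all 3 groups. The WT samples lay at 221 and 248 CPM at P2, 25.4 and 19.3 CPM at P4 and 98.2 and 90.6 CPM at day 28, with no overlap between the groups. The log2 fold change of dKO against WT was 0.22 ± 0.16 at P2, 3.58 ± 0.18 at P4 and 1.45 ± 0.14 at day 28, so the difference between genotypes was widest at P4, where WT was lowest.

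RARB (ENSG00000077092; chromosome 3, 24687887 to 25597932), the receptor gene that carries the DR5 sequence printed above, stood low in all groups. It was at 7.83 and 14.9 CPM in WT P2 and 13.5 and 9.90 CPM in dKO P2, groups that overlapped. It was at 2.34 and 2.31 CPM in WT P4 against 5.39 and 5.40 CPM in dKO P4, and at 4.20 and 5.13 CPM in WT-D28 against 9.21 and 3.67 CPM in dKO-D28. The log2 fold change of dKO against WT was -0.05 ± 0.47 at P2, 1.203 ± 0.49 at P4 and 0.42 ± 0.36 at day 28. The value at P4 lost its call when any 1 of the 4 P4 samples was left out and under DESeq2, although the log2 fold change stayed at 1.19 to 1.21. Without WT-D28 sample 2, RARB was below the filter and was not tested in any comparison. The day 28 value turned to -0.34 without dKO-D28 sample 1, the higher sample.

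The thresholds of the study's methods were kept, so that a call needs more than a 2-fold change together with an unadjusted p below 0.05. They were applied in a single fit to 13454 genes, each with 20 or more counts on average. The filter passed 6 of the 9 genes, with ALDH1A2, CYP26A1 and CYP26B1 below it. A gene can pass through the group in which it is high, and the genes were chosen on these contrasts, so nothing is read from the counts that follow. At P2, 0 of the 6 were higher in dKO (2.59% of all genes tested were) and 1 was lower, ALDH1A3 (1.83%). At P4, 4 were higher, ALDH1A1, RARB, CRABP2 and DHRS3 (11.1%), and 0 lower (11.2%). At day 28, 5 were higher, all except RARB (12.4%), and 0 lower (11.7%). The median log2 fold change of the 6 was -0.18, 1.36 and 3.56 in the 3 comparisons, beside 0.00, 0.02 and 0.00 over all genes tested, with the same medians when ALDH1A1 and ALDH1A3 are set to their lower bounds against groups at 0. The 5 calls at day 28 were also made without either dKO-D28 sample, with log2 fold changes of 2.63 to 2.95 for CRABP1, 1.31 to 1.60 for CRABP2 and 3.37 to 4.96 for DHRS3, which was 5.28 without WT-D28 sample 2.

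Over time the genotypes are given side by side. From P2 to day 28 in WT, 5 of the 6 were called lower, all except ALDH1A1 (11.5% of all genes), and 0 higher (12.9%). The fold changes were -4.67 ± 0.80 for DHRS3, -3.66 ± 0.17 for CRABP1, -1.32 ± 0.15 for CRABP2 and -1.36 ± 0.44 for RARB on the log2 scale. In dKO over the same interval, 0 were called in either direction (4.01% higher and 3.14% lower over all genes), with values between -0.89 ± 0.42 for RARB and 1.66 ± 0.86 for ALDH1A1. From P2 to P4 in WT, 4 were called lower (9.49%) and 0 higher (10.3%), with ALDH1A3 at -5.32 ± 0.40, CRABP2 at -3.41 ± 0.18, CRABP1 at -3.12 ± 0.18 and RARB at -2.37 ± 0.54. In dKO, 1 was called higher, DHRS3 at 2.00 ± 0.46 (4.61%), and 3 lower, ALDH1A3 at -2.96 ± 0.41, CRABP1 at -2.02 ± 0.17 and RARB at -1.11 ± 0.44 (5.22%). CRABP1 and ALDH1A3 thus fell in level with passage in both genotypes, while CRABP2 did so in WT and had -0.05 ± 0.15 in dKO. Without WT P2 sample 2, the higher sample for RARB, its WT values were -0.74 to day 28 and -1.74 to P4, and neither was called. In dKO, its fall to P4 was not called without dKO P2 sample 1 (-0.88) or without either dKO P4 sample (-1.11 in both fits). For dKO from P2 to day 28, calls appeared for ALDH1A1 (2.30) and RARB (-1.66) without dKO-D28 sample 1 and for ALDH1A3 (1.10) without dKO P2 sample 1.

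**Figure D2:**
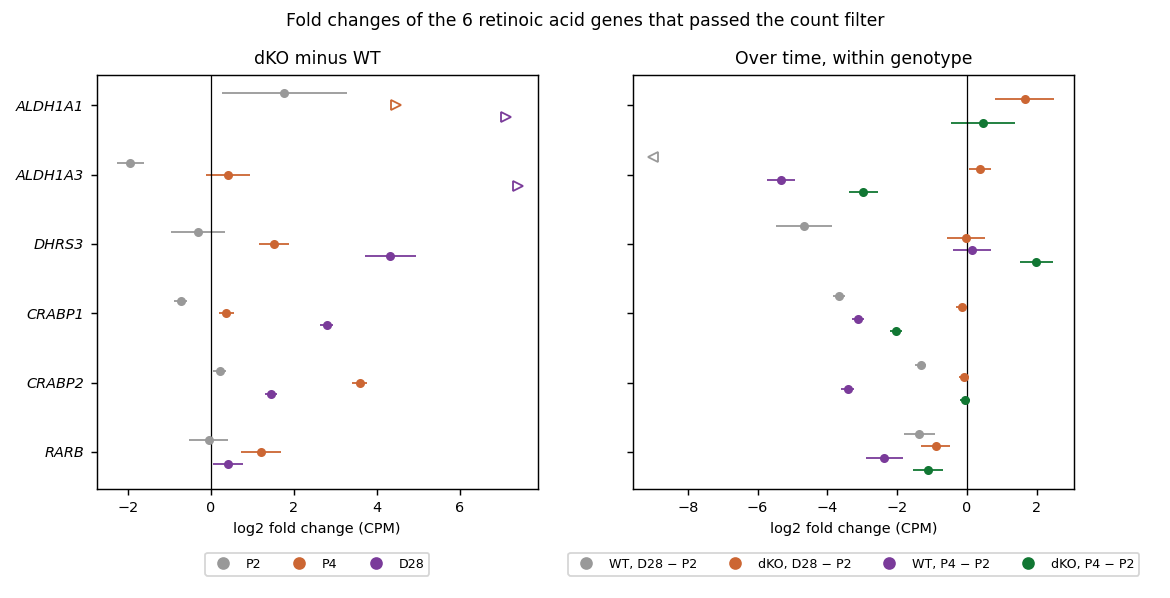
Log2 fold change ± SE from the edgeR fit for the 6 genes that passed the count filter, dKO against WT at P2, P4 and day 28 (left) and each genotype over time (right). Open triangles are lower bounds on the size of the change where a group was at 0 in both samples, and no value is drawn for ALDH1A1 within WT over time, where the groups overlapped at 0; at day 28 the values of CRABP1, CRABP2 and DHRS3 are 2.79, 1.45 and 4.32.

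The rest of the pathway was described with 60 further genes of retinoid uptake, conversion, binding, reception and response, none of them among the 9. They were listed from general knowledge of the pathway, with earlier results of these data known. Of the 60, 27 passed the filter and 10 were at 0 in all samples, RXRB and RDH13 among them. A count of 0 in every sample does not show that a gene is silent. The annotation used for counting is not given, and reads may have been assigned elsewhere. The 27 genes were tested with the quasi-likelihood test of edgeR, and p-values were adjusted over all 13454 genes by the Benjamini-Hochberg method. Because earlier results were known when the list was written, these p-values are not independent support. At P2, 2 of the 27 were called higher in dKO, TGM2 and DHRS4, and 2 lower, NR2F1 and RDH10, none with an adjusted p below 0.05 and 8 with an unadjusted p below 0.05. TGM2 lost its call when only the P2 samples were fitted (2.03). DHRS4, a retinal reductase named after its values were seen, had 1.18 ± 0.51, and 0.59 or 0.85 with no call without WT P2 sample 2 or dKO P2 sample 1. Over the 17 settings in which DHRS4 was tested it ranged from 0.59 to 1.71 and was not called in 5. At P4, 4 were higher and 5 lower, and at day 28, 7 were higher and 3 lower, all with an adjusted p below 0.05. As shares of the 27, the P2 calls were 7.41% higher and 7.41% lower, beside 2.59% and 1.83% of all genes tested. The P4 calls were 14.8% higher and 18.5% lower, beside 11.1% and 11.2%. The day 28 calls were 25.9% higher and 11.1% lower, beside 12.4% and 11.7%. The median log2 fold change over the 27 was 0.20, 0.10 and 0.20 at P2, P4 and day 28. The genotype effect itself differed from that at P2 for 8 of the 27 at P4 (19.3% of all genes tested) and for 6 at day 28 (23.2%), 7 and 4 of them with an adjusted p below 0.05.

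STRA6 and LRAT, of retinol uptake and storage, were higher in dKO than in WT at P4. STRA6, the receptor that takes up retinol from its plasma carrier, was at 23.4 and 31.6 CPM in WT P4 against 127 and 122 CPM in dKO P4, a log2 fold change of 2.16 ± 0.36 (adjusted p = 0.00118, edgeR). At P2, STRA6 was at 112 and 121 CPM in WT NPCs, while dKO NPCs held 141 and 139 CPM, so that the P4 gap went with a lower level in WT and not with a higher one in dKO. At day 28 it was 1.57 ± 0.32 (adjusted p = 0.00332, edgeR), and 0.88 with no call without dKO-D28 sample 1, the higher one. LRAT, which esterifies retinol for storage, was at 59.5 and 63.8 CPM in dKO P4 and at or below 7.72 CPM in every other sample, with 4.04 ± 0.39 at P4 (adjusted p = 1.13e-06, edgeR). The WT P4 samples were at 0.668 and 6.16 CPM, and the value was 3.31 without the first and 6.46 without the second. Of the 3 tested genes of this group, 2 were called higher at P4 (11.1% of all genes tested) and 1 at day 28 (12.4%). None was called lower at P4 (11.2%) or at day 28 (11.7%).

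Among 16 listed retinol and retinal oxidoreductases, 5 were tested and RDH10, the main retinol dehydrogenase of the embryo, was the only one called at P4 or day 28. It was at 43.1 and 36.5 CPM in WT P2 against 13.5 and 9.19 CPM in dKO P2. The order was the opposite at P4, where WT held 7.02 and 8.73 CPM against 62.8 and 70.6 CPM for dKO, and at day 28, where WT held 5.04 and 5.23 CPM against 47.3 and 106 CPM for dKO. The log2 fold changes were -1.79 ± 0.52 at P2 (adjusted p = 0.112, edgeR), 3.06 ± 0.38 at P4 (adjusted p = 6.20e-05, edgeR) and 3.90 ± 0.35 at day 28 (adjusted p = 3.16e-06, edgeR), where it was 3.198 without dKO-D28 sample 2. RDH10, like ALDH1A3, was thus lower in dKO at P2 and higher at day 28, although the P2 difference of RDH10 did not pass the adjustment. Within WT, RDH10 fell from P2 to P4 by 2.30 and to day 28 by 2.92 on the log2 scale (adjusted p = 0.00293 and 0.000317, edgeR), and within dKO it rose by 2.56 and 2.77 (adjusted p = 0.00228 and 0.00201, edgeR).

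Of the 4 receptors tested, RARG was the only one called, at day 28. RARA was at 28.0 to 43.2 CPM in WT and 36.7 to 51.0 CPM in dKO over the series, and RXRA at 49.5 to 58.1 and 45.6 to 64.6 CPM, and neither was called in any of the 7 comparisons. The largest of their dKO against WT values was 0.64 ± 0.15 for RARA at P4, under the fold threshold (adjusted p = 0.00238, edgeR). RARG was at 3.72 and 4.53 CPM in WT-D28 against 15.5 and 12.7 CPM in dKO-D28, a log2 fold change of 1.76 ± 0.30 (adjusted p = 0.000105, edgeR). RXRG, below the filter, had 42 and 57 reads in WT-D28 against 2 and 0 in dKO-D28, a ratio of 0.0397 (95% exact interval 0.00474 to 0.147).

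The carriers outside the CRABP pair were lower in dKO at P4. FABP7, a fatty acid binding protein of radial glia, was at 1884 and 1720 CPM in WT P4 against 87.1 and 79.2 CPM in dKO P4, a difference of -4.44 ± 0.59 (adjusted p = 0.000926, edgeR), and of -1.94 ± 0.54 at day 28 (adjusted p = 0.0215, edgeR). The dKO-D28 samples were at 178 and 43.8 CPM against 413 and 427 CPM in WT-D28, and the day 28 value was -3.25 without dKO-D28 sample 1 and -1.23 without sample 2. FABP5, which can carry retinoic acid to PPARD, was at 57.5 and 74.2 CPM in WT P4 against 16.2 and 17.2 CPM in dKO P4 (-1.99 ± 0.22, adjusted p = 1.52e-06, edgeR). Of the 7 coregulators, NCOA1 was lower at P4 (-1.27 ± 0.11, adjusted p = 1.23e-07, edgeR) and NRIP1 higher at day 28 (1.73 ± 0.13, adjusted p = 1.16e-08, edgeR); NRIP1 was named after its values were seen.

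The tested genes known to respond to retinoic acid did not move in a single direction. Of 18 listed, 6 were tested, with 1 higher and 1 lower at P2, 1 higher and 2 lower at P4, and 3 higher and 2 lower at day 28. Over all genes tested, the shares called higher and lower were 2.59% and 1.83% at P2. These shares were 11.1% and 11.2% at P4, and 12.4% and 11.7% at day 28. RARB, CYP26A1 and DHRS3 belong to the 9 genes and are not in this list. Counting untested genes, dKO lay wholly above WT for 3 listed genes and wholly below for 5 at P2, and 6 overlapped. At P4 and at day 28 dKO lay above for 4 and below for 5, and 5 overlapped. The share of all genes without overlap is not given here, so nothing is read from these numbers. RARRES2, below the filter and named after its values were seen, was higher in dKO without overlap at all 3 stages. Its means were 16.7 against 10.8 CPM at P2, 7.75 against 1.01 at P4 and 7.81 against 0.642 at day 28. TGM2, a transglutaminase, was at 16.97 and 78.3 CPM in WT P2 against 198 and 247 CPM in dKO P2. It was at 1.00 and 0.257 CPM in WT P4 against 24.1 and 25.5 CPM in dKO P4, and at 0.840 and 0.805 CPM in WT-D28 against 10.7 and 31.3 CPM in dKO-D28. Its log2 fold changes were 2.08 ± 0.59 at P2 (adjusted p = 0.145, edgeR), 5.34 ± 1.19 at P4 and 4.66 ± 0.88 at day 28 (adjusted p = 0.00838 and 0.00318, edgeR). The values were 3.71 at P2 without WT P2 sample 2, 4.58 to 6.43 at P4 without either WT P4 sample and 3.65 at day 28 without dKO-D28 sample 2. MEIS1, a homeobox cofactor, was higher at day 28 by 2.40 ± 0.18 (adjusted p = 1.29e-08, edgeR). Its relative MEIS2 was lower at P4 (-2.66 ± 0.13, adjusted p = 1.69e-10, edgeR) and higher at day 28 (1.45 ± 0.12, adjusted p = 6.17e-08, edgeR). NR2F1, an orphan receptor of neural tissue, was lower at P4 by 1.88 on the log2 scale and at day 28 by 1.18 (adjusted p = 0.00212 and 0.0126, edgeR), the latter with no call without dKO-D28 sample 1 (-0.78) or with counts corrected for GC and length (-0.91). TSHZ1 was lower at day 28 (-1.12 ± 0.17, adjusted p = 2.76e-05, edgeR), and at -0.89 with no call without dKO-D28 sample 1. The HOX genes of the list, named after their values were seen, stood low, with at most 3.08 CPM for HOXB4, in a WT P4 sample, at most 0.707 CPM for the others, and 0 for HOXB1 and HOXA4 throughout.

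From P2 to day 28 in WT, 7 of the 27 further genes were lower (11.5% of all genes tested) and 1 higher (12.9%), with TGM2 at -5.95 ± 0.92, RDH10 at -2.92 ± 0.44, MEIS1 at -2.73 ± 0.20 and MEIS2 at -2.33 ± 0.14, and FABP7 higher at 1.82 ± 0.59 (adjusted p = 0.00156, 0.000317, 2.73e-08, 2.54e-09 and 0.0454, edgeR). Without WT P2 sample 2, TGM2 was at -4.32. The FABP7 call was lost without either WT P2 sample or without WT-D28 sample 2, at 1.70 to 1.92. In dKO, 2 were lower (3.14%) and 1 higher (4.01%). The former were TGM2 at -3.37 ± 0.55 (-4.38 without dKO-D28 sample 2) and FABP5 at -1.79 ± 0.23, and the latter was RDH10 (adjusted p = 0.0103, 7.54e-05 and 0.00201, edgeR). From P2 to P4, 4 were lower (9.49%) and 3 higher (10.3%) in WT, and 3 were lower (5.22%) and 2 higher (4.61%) in dKO. In dKO the higher pair were LRAT, at 4.07 ± 0.48 (adjusted p = 6.00e-05, edgeR), and RDH10.

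Markers of other cell types moved with the genotypes and were set beside these genes. Of all genes tested, 2.59% were called higher in dKO and 1.83% lower at P2, 11.1% and 11.2% at P4, and 12.4% and 11.7% at day 28. The 9 markers of mesenchyme and meninges summed to 157 to 399 CPM in WT P2 and 887 to 1071 CPM in dKO P2, 257 to 266 and 1766 to 1788 CPM at P4, and 200 to 211 and 317 to 422 CPM at day 28. Of the 7 tested, 7 were called higher at P2, 5 at P4 and 5 at day 28, where 2 were lower. DCN was at 0 in all P2 samples, and TWIST1 in dKO P2 and WT-D28. The 5 eye markers summed to 90.9 to 137 CPM in WT P2 and 53.7 to 69.1 CPM in dKO P2, 10.02 to 12.8 and 32.9 to 34.9 CPM at P4, and 7.68 to 8.55 and 110 to 201 CPM at day 28. Of the 4 tested, 0 were called at P2 and 3 were higher at P4 and 3 at day 28, and SIX6 was at 0 in WT-D28. The 6 neural crest markers summed to 9.14 to 15.7 CPM in WT P2 and 14.9 to 30.0 CPM in dKO P2, 8.48 to 10.4 and 57.6 to 58.3 CPM at P4, and 1.81 to 2.64 and 24.2 to 117 CPM at day 28. Of the 4 tested, 0 were called at P2, 2 were higher at P4 and 4 at day 28. SOX10, FOXD3, TFAP2B and PAX3 were at 0 in WT P2, FOXD3 and TFAP2B in dKO P2, FOXD3 in dKO-D28, and PAX3 in WT P4 and WT-D28. The 6 neuronal markers summed to 1132 to 1272 CPM in WT P2 and 936 to 1019 CPM in dKO P2, and to 4012 to 4566 and 776 to 808 CPM at P4. Of the 5 tested, 0 were called at P2 and 5 were lower at P4 and 5 at day 28. The 4 astrocyte markers summed to at most 7.07 CPM at P2, to 46.2 to 54.5 CPM in WT P4 and 11.7 to 15.7 CPM in dKO P4, and to 36.0 to 38.7 and 7.999 to 8.88 CPM at day 28. All 3 tested were lower at P4 and at day 28, and S100B and ALDH1L1 were at 0 at P2. The 3 choroid plexus markers summed to 0.745 to 1.31 CPM in WT P2 and 2.83 to 4.504 CPM in dKO P2, 1.28 to 2.00 and 18.7 to 20.1 CPM at P4, and 1.91 to 2.28 and 9.84 to 14.8 CPM at day 28. The 1 tested was higher at P4 and at day 28, and TTR was at 0 at P2. The part of any of these cell types in the levels of the retinoic acid genes was not tested.

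By Pearson's r of log2 CPM (prior count 1) over the 12 samples, the genes most like ALDH1A1 were KRT8 (0.994), LSR (0.989) and HIP1 (0.986). Those most like ALDH1A3 were its antisense partner ALDH1A3-AS1 (0.998), EPB41L2 (0.988) and POLQ (0.987), and those most like CRABP1 were its antisense partner ENSG00000279694 (0.988), SASS6 and PLIN2 (both 0.980). The closest to CRABP2 were CCND1 (0.985), ARHGEF17 (0.984) and KIAA1671 (0.979), to DHRS3 ATOH8 (0.964), CCDC152 (0.954) and SYPL1 (0.946), and to RARB COL25A1 (0.944), BEGAIN (0.940) and ENPP2 (0.934). Among the 6 genes themselves, r was highest for ALDH1A3 with CRABP1 (0.919) and lowest for RARB with DHRS3 (0.167). These values are descriptions, since the 12 points are 6 pairs of samples of the same group that share depth and state, and each list holds the highest of many genes.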

How the data were processed

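The authors prepared TruSeq libraries from TRIzol-extracted RNA, mapped reads to hg38 with HISAT2 2.0.4, and used SAMtools 1.3.1 and htseq-count 0.6.0. They deposited raw counts for 58302 Ensembl genes in 12 samples, without normalization or filtering. The annotation release and strand setting of the counting are not given in the sources used here. The study's EDASeq normalization and DESeq 1.18.1 test are not part of the counts. Symbols, positions and exon lengths came from GENCODE v44, which held 98.7% of the genes and 99.8% of the counts.

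Counts were fitted with the robust quasi-likelihood method of edgeR 4.0.16 in R 4.3.3, with TMM scaling and 6 group means, on the 13454 genes that averaged 20 or more counts. CPM used the summed counts of these genes times the TMM factors. A call needs more than a 2-fold change together with an unadjusted p below 0.05, and p-values were adjusted within each comparison by the Benjamini-Hochberg method. With 2 samples a group, an exact two-sided permutation test cannot go below 0.333, so calls rest on the spread shared across genes and groups. The SE is the log2 fold change divided by the square root of F. The fit was tested on simulated counts.

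The 9 genes, the 60 further genes and the marker lists were chosen with earlier results of these data known. Named were the 9 genes, the further genes called with an adjusted p below 0.05 (at most the 4 largest rises and 4 largest falls in a comparison), RARA, RARG, RXRA, RXRB, RXRG, RDH10, STRA6, CYP26C1 and RARRES2, the targeted genes, and the 3 genes most like each of the 6. Genes below the filter were given as counts and as ratios of counts with exact 95% intervals. Alternatives were DESeq2 1.42.0, calls by adjusted p, a fit of the compared samples, a looser filter (1 count in any sample), a stricter one (10 counts in every sample), offsets that correct for GC and length in 10 bins each, a replicate block, and leaving out each sample. No sample pair had identical counts. A listed gene is not reported here and is left out of the 60.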

Additional observations from a re-analysis of the deposited data

Results flagged for a closer look

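For 7 of the further retinoid genes the difference between dKO and WT at P4 differed from that at P2, and for 4 the difference at day 28 did, each tested as a contrast of the same edgeR fit with an adjusted p below 0.05 and a change above 2-fold. At the same adjusted threshold, 2061 and 2718 of all 13454 genes tested were called in these contrasts, beside the 7 and 4 of 27 further genes. At the unadjusted threshold 19.3% and 23.2% of all genes tested were called. On the log2 scale, the effect at P4 minus that at P2 was 4.85 for RDH10, 1.91 for STRA6, -1.20 for RDH11, -2.35 for FABP5, -4.02 for FABP7, -1.02 for NCOA1 and -1.93 for MEIS2. The effect at day 28 minus that at P2 was 5.69 for RDH10, 1.53 for NRIP1, 3.24 for MEIS1 and 2.18 for MEIS2. MEIS2 and RDH10 appear in both contrasts, and MEIS2 with opposite signs. NCOA1 fell below the 2-fold threshold without WT P2 sample 2, dKO P2 sample 1 or WT P4 sample 2 (-0.99 to -0.91) and with counts corrected for GC and length (-0.84), and RDH11 lost its call with the replicate block and that correction together (-0.997).

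ALDH1A3 and CRABP1 are listed because every sample of dKO lay on one side of WT at 1 stage and on the other side at another. The log2 fold change of ALDH1A3 was -1.95 at P2, while at day 28 it was at least 168-fold higher in dKO, since WT-D28 was at 0. CRABP1 had -0.73 at P2, 0.37 at P4 and 2.79 at day 28. The difference between stages was not tested for either gene, because both were chosen on these contrasts.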

How the results depend on the processing

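No called fold change of the 9 genes changed sign. Of 320 counts of called genes recomputed under an alternative, 293 stayed within 1.5 times. Among the 60 further genes, calls by adjusted p left 0 at P2 in place of 4. Testing every gene with 1 count in any sample gave 17 calls at P4, 17 at day 28, 6 for dKO from P2 to day 28, 9 for dKO from P2 to P4, 11 for WT from P2 to P4 and 10 for the day 28 effect minus that at P2, because 50 genes were then tested. Requiring 10 counts in every sample left 2 of the further genes called at P2. It left 2 of the 9 genes tested, with 0 called at P2, 1 at P4, 2 at day 28, 2 for WT from P2 to day 28, 2 for WT from P2 to P4 and 1 for dKO from P2 to P4. For dKO from P2 to day 28, where none of the 9 was called, 1 was called with the 1 count filter and 1 with the correction for GC and length. Leaving out 1 sample gave 1 to 2 calls among the 9 genes at P2 and 0 to 2 for dKO from P2 to day 28, and among the further genes 3 to 6 for dKO from P2 to day 28 and 5 to 10 for the day 28 effect minus that at P2.

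Deviations of same-numbered samples correlated at -0.053 to 0.175 over 15 pairs of groups, with the highest value for WT P4 with dKO P4. The main fit did not pair samples, and low correlations cannot exclude that they were paired. With the replicate block and the correction together, 2 of the 9 genes were called for dKO from P2 to day 28 and 5 of the further genes, in place of 8, for the P4 effect minus that at P2, and the block moved no other count by over 1.5 times. Depth limits the P2 samples most, where genes under 3.92 CPM cannot be told from 0 in the shallowest library.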
